A study of Mus musculus with 4 samples.

Results

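The Hox gene clusters were examined for open chromatin in wild-type and Ranbp2 knockout fibroblasts. The 38 member genes, of 21887 protein-coding genes in the RefSeq table, were 10 of HoxA on chromosome 6, 10 of HoxB on chromosome 11, 9 of HoxC on chromosome 15 and 9 of HoxD on chromosome 2. An ATAC-seq peak was assigned to a cluster when its summit lay between the first and the last member gene (the span) or within 100 kb on either side (the flanks), and span and flanks together are called the window. The cells were 10T1/2, an established mouse embryonic fibroblast line, with 2 libraries of wild-type cells and 2 of Ranbp2 knockout cells. The knockout was made with CRISPR-Cas9 and was 1 clone grown from a single sorted cell, so an effect of the knockout and a property of that clone cannot be told apart. Ranbp2 encodes a nucleoporin of the cytoplasmic face of the nuclear pore. The labels number the libraries 1 and 2 within each genotype but do not say that they came from separate cultures, so a p-value over libraries reflects the spread among these samples alone, and that spread may be technical.

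Hox genes encode homeodomain transcription factors that give cells their position along the head-to-tail axis and the limbs. In each cluster the order of the genes follows the order of their expression, with low-numbered genes at the 3′ end active towards the head and high-numbered genes at the 5′ end active towards the tail. Fibroblasts keep part of this code from the place they came from, with active stretches marked by Trithorax proteins and silent ones held by Polycomb proteins.

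The wild-type lists held 33721 and 18511 peaks and the knockout lists 13877 and 24292, and the lengths of the lists overlapped between genotypes. The fold enrichment of a peak is the authors' ratio of its summit over local background, and its percentile is its rank by −log10 q within its own list, where 100 is the strongest peak. Because a longer list reaches weaker peaks, counts are also given at equal length, with each list reduced to its 13877 best-ranked peaks, which ends at a −log10 q of 23.7 and 9.62 in the wild-type and 3.01 and 12.6 in the knockout lists. Of the 8 fibroblast markers listed, 4 had a start in the RefSeq promoter table, and a peak within 1 kb of the start was present at 4, 2, 1 and 1 of them in wild-type replicates 1 and 2 and knockout replicates 1 and 2. Col1a2, a fibrillar collagen gene, had one in all 4 lists. Twist1, a mesenchymal transcription factor, had one in both wild-type lists and neither knockout list, and no longer stood out in this way at equal length. No start peak was found for the epithelial, endothelial, immune or pluripotency markers that had a start, and 1 neural marker had one in wild-type replicate 1 only. A start peak of Ranbp2 was present in all 4 lists, which does not check the knockout, since a small lesion need not close a promoter.

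The sites below carry the description that follows. The strongest open site of all 4 windows lay in HoxA over the promoter of Gm15050, a long non-coding RNA gene inside the span of Hoxa3 and on the opposite strand. The promoter of Hoxa5 was the only one of a member in the RefSeq table that was open in all 4 lists, and that of Hoxa2 was open in a single list. The sequences are RefSeq's for GRCm38.p6, which has the primary coordinates of mm10. Each runs 5′ to 3′ on the strand of its gene, from 250 bases before the start to 50 after it. In the first and second, capitals mark the bases under a peak in all 4 lists, which were 217 and 16 of 300. In the Hoxa2 sequence they mark the 56 bases under the peak of wild-type replicate 1.
Gm15050, chr6:52172631-52172930, plus strand: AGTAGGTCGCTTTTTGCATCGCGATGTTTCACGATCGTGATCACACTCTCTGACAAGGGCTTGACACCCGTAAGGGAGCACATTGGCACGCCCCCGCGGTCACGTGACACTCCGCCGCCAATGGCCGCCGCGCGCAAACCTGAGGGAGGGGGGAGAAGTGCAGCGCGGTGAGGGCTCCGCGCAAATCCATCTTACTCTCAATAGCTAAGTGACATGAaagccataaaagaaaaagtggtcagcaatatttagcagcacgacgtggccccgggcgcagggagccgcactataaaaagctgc
Hoxa5, chr6:52204538-52204837, minus strand: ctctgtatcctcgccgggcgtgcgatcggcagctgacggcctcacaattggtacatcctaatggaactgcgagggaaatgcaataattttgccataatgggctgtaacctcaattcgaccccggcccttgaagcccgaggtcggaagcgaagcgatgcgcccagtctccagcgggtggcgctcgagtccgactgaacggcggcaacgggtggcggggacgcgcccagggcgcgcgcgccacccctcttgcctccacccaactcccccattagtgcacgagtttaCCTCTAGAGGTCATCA
Hoxa2, chr6:52164782-52165081, minus strand: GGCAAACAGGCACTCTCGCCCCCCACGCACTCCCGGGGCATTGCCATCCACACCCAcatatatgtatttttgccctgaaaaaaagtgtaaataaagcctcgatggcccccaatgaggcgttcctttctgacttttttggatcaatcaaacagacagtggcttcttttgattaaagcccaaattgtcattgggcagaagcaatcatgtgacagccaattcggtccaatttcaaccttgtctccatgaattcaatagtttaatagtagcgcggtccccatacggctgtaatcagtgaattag
The bases of Gm15050 covered in all 4 lists lay before its start, whereas the bases of Hoxa5 covered in all 4 lists were the last 16 of its sequence, on the gene side of the start. The promoters held 25, 29 and 9 CpG dinucleotides.

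Open chromatin in the Hox clusters was concentrated in HoxA. The windows held 25 and 11 peaks in the wild-type lists and 10 and 14 in the knockout lists, which was 0.0741% and 0.0594% against 0.0721% and 0.0576% of each list. The Wilson 95% intervals of these shares were 0.0502 to 0.109, 0.0332 to 0.106, 0.0391 to 0.133 and 0.0343 to 0.0967%. The shares of the 2 genotypes overlapped, and the knockout mean of 0.0648% ± 0.0102 and the wild-type mean of 0.0668% ± 0.0104 differed by -0.00193 percentage points (SD, n = 2 each; two-sided exact permutation p = 0.667, where 2 against 2 cannot give less than 0.333). The sign of this difference turned when wild-type replicate 1 or knockout replicate 2 was left out, to 0.00542 and 0.00528 percentage points above.

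Inside the HoxA span of 98.5 kb there were 12 and 4 wild-type and 4 and 6 knockout peaks. The HoxB span of 173.9 kb held 2 and 0 wild-type peaks and 1 in each knockout list. The HoxC span of 115.7 kb held 0 in every list, and the HoxD span of 96.9 kb held 1, in wild-type replicate 1. Relative to the mean peak density of the autosomes and X in the same list, the HoxA span was 9.5 and 5.78 times as dense in wild-type and 7.74 and 6.63 times as dense in knockout libraries. At equal length, as defined above, these values were 5.78 and 3.85 in wild-type and 7.74 and 9.68 in knockout libraries. They rest on few peaks, 3 and 2 in wild-type and 4 and 5 in knockout libraries. The genotypes thus overlapped with the lists as deposited and did not at equal length. The HoxB span stood at 0.897 and 0 times in wild-type and 1.1 and 0.626 times in knockout libraries. A count of 0 in these lists means that no peak passed the caller's threshold, not that no site was open.

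**Figure D1:**
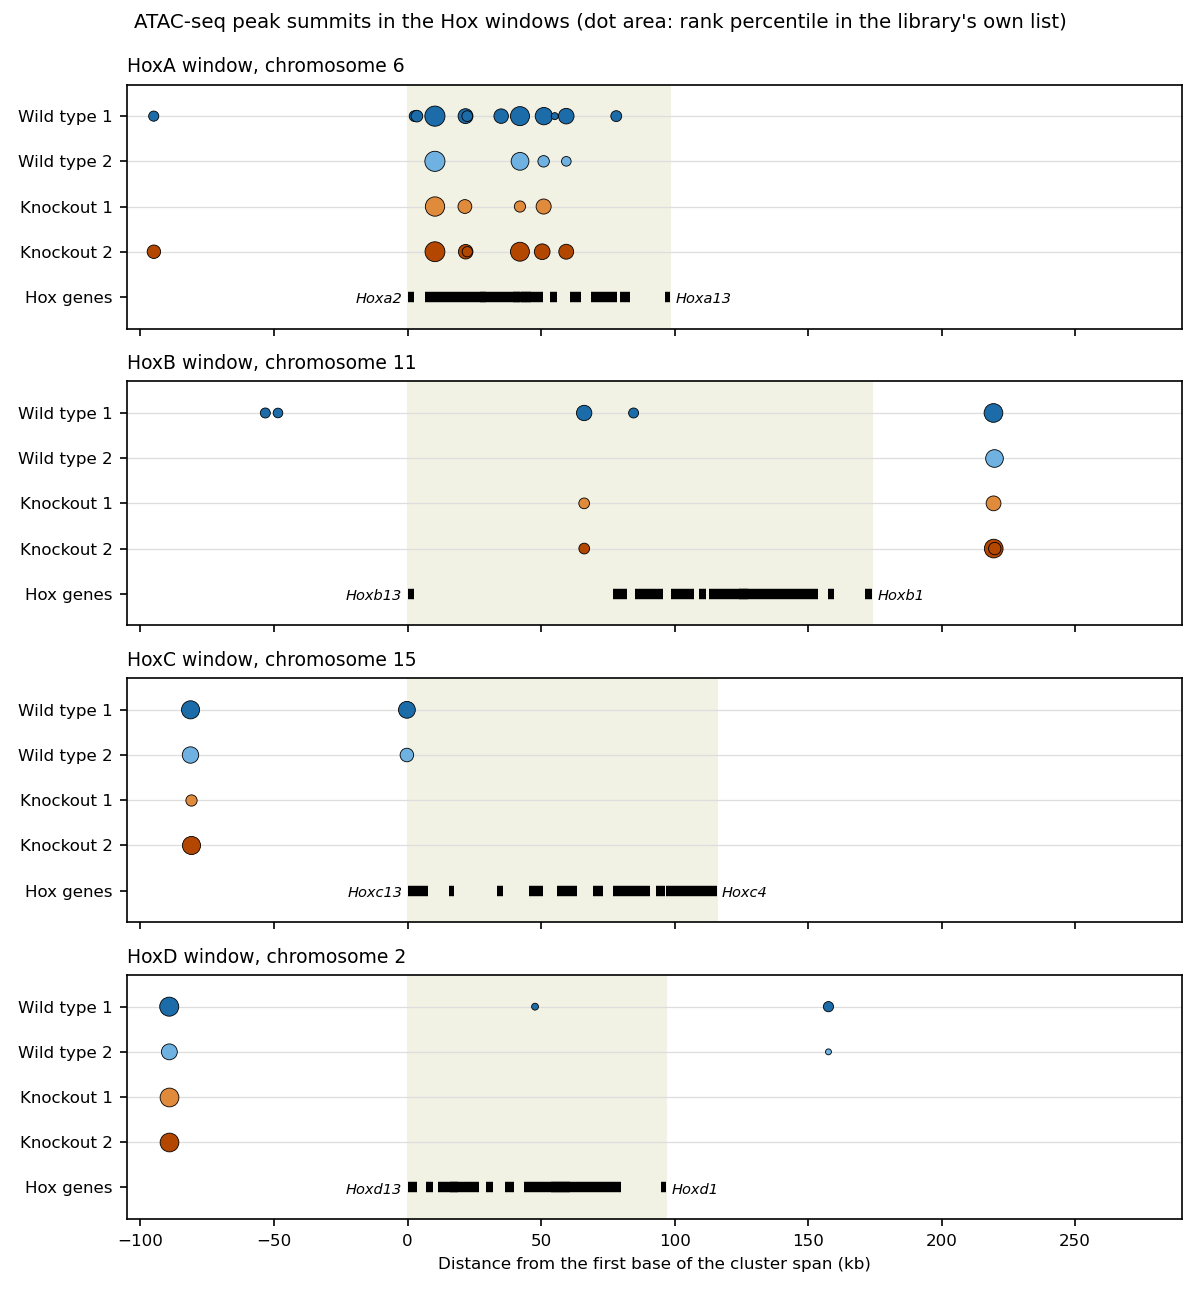
Peak summits of each library in the 4 windows, plotted by distance in kb from the first base of the cluster span; the shaded area is the span, dot area grows with the percentile of the peak in its own list, and black bars are the member genes; 2 sites of the HoxA flank are not drawn. The HoxA span carries 12, 4, 4 and 6 summits in the libraries from top to bottom and the HoxC span carries none.

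The peaks of the windows joined into 26 sites, 15 inside the spans and 11 in the flanks. HoxA had 15 of them, HoxB 6, HoxC 2 and HoxD 3. A peak in all 4 lists was present at 7 sites (26.9%), beside 28.0% of all merged regions of the genome. Both wild-type lists and neither knockout list had a peak at 2 sites (7.69%, beside 6.52%), and both knockout lists and neither wild-type list at 0 (beside 0.953%). A further 10 sites (38.5%, beside 40.9%) came from a single list, 9 of them from wild-type replicate 1, the longest list, which had a peak at 25 of the 26 sites. These shares lay near those of the genome as a whole. Without wild-type replicate 2 the wild-type-only sites numbered 11, and without wild-type replicate 1 or knockout replicate 1 there was 1 knockout-only site. Within the spans, 2 of the 15 sites were in all 4 lists, 4 in 3, 2 in 2 and 7 in 1, whereas 5 of the 11 flank sites were in all 4.

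At equal length the windows held 9 and 8 wild-type and 10 and 10 knockout peaks, so that every knockout library lay above both wild-type libraries, by 1.5 peaks on average (8.5 ± 0.707 and 10.0 ± 0; SD, n = 2 each; exact permutation p = 0.333, the smallest possible). Without knockout replicate 1, with the lists reduced to the shortest one left, the difference was 0.5. With the lists as deposited the knockout mean was instead 6 peaks lower (p = 0.667 by the same exact permutation test). The HoxA window held 5 and 4 wild-type and 6 and 7 knockout peaks at equal length, a difference of 2 (p = 0.333, exact permutation test), and as deposited the knockout mean was 3 lower. Chromosome 6 as a whole moved in the same direction at equal length, with 719 and 718 wild-type and 763 and 745 knockout peaks, and its part in the HoxA difference was not tested. The HoxB window held 1 and 1 against 2 and 1 peaks, a difference of 0.5 that was -0.5 with the lists as deposited. HoxC held 2 and 2 against 1 and 1 by both ways of counting. On chromosome 15 the wild-type lists also held more peaks at equal length, 758 and 746 against 665 and 698. HoxD held 1 peak in each list at equal length, and 3 and 2 against 1 and 1 as deposited.

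**Figure D2:**
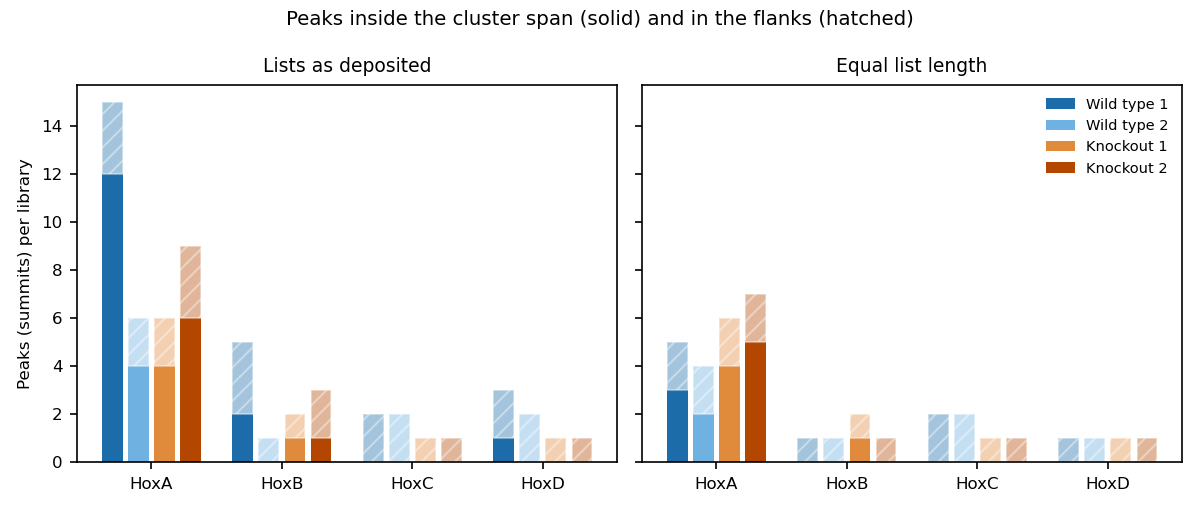
Number of peaks per library in each Hox window, inside the span (solid) and in the flanks (hatched), for the lists as deposited (left) and reduced to equal length (right). HoxA is the highest cluster in every library, and its order of genotypes differs between the panels, with 15, 6, 6 and 9 peaks on the left and 5, 4, 6 and 7 on the right.

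The equal-length lists formed 14 sites, of which 7 were in all 4 lists (50%, beside 44.9% of all regions), 1 in both wild-type and neither knockout list (beside 6.20%) and 0 in both knockout and neither wild-type list (beside 5.23%). Of the 5 sites of a single list (35.7%, beside 25.2%), 2 came from knockout replicate 1, 3 from knockout replicate 2 and 0 from a wild-type library, and all 5 lay inside the spans. At equal length these single-list peaks were thus not shared between the knockout libraries. With the lists as deposited, however, wild-type replicate 1 had a peak at all 5 of these places. The one in HoxB, 10.9 kb upstream of Hoxb9, then had a peak in both knockout lists, with fold enrichments of 6.33 and 5.18. These peaks are therefore not absent from the wild-type lists as deposited.

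Within HoxA the open sites lay mainly in the 3′ part. The stretch from Hoxa2 to Hoxa7 (56.2 kb) held 10 sites and 10, 3, 4 and 5 peaks in the libraries in the order wild-type 1, wild-type 2, knockout 1 and knockout 2, which is the order used for all values below. The stretch from Hoxa9 to Hoxa13 (37.8 kb) held 1 site, seen in wild-type replicate 1 only. No summit of any list lay in the 120 kb from the Hoxa10 site to the end of the window. In HoxB, by contrast, the 88.9 kb from Hoxb8 to Hoxb1 held 0 sites, and the 82.3 kb from Hoxb13 to Hoxb9 held 1. Sites between the parts are in neither count. These are a HoxA site between Hoxa7 and Hoxa9 and a HoxB site 434 bp upstream of Hoxb8. In HoxC neither part held a summit, and 216 kb from the Hoxc13 start to the end of the window were without one. In HoxD the 60.5 kb from Hoxd8 to Hoxd1 held 1 site, in 1 list, and the 32 kb from Hoxd13 to Hoxd9 held 0.

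**Figure D3:**
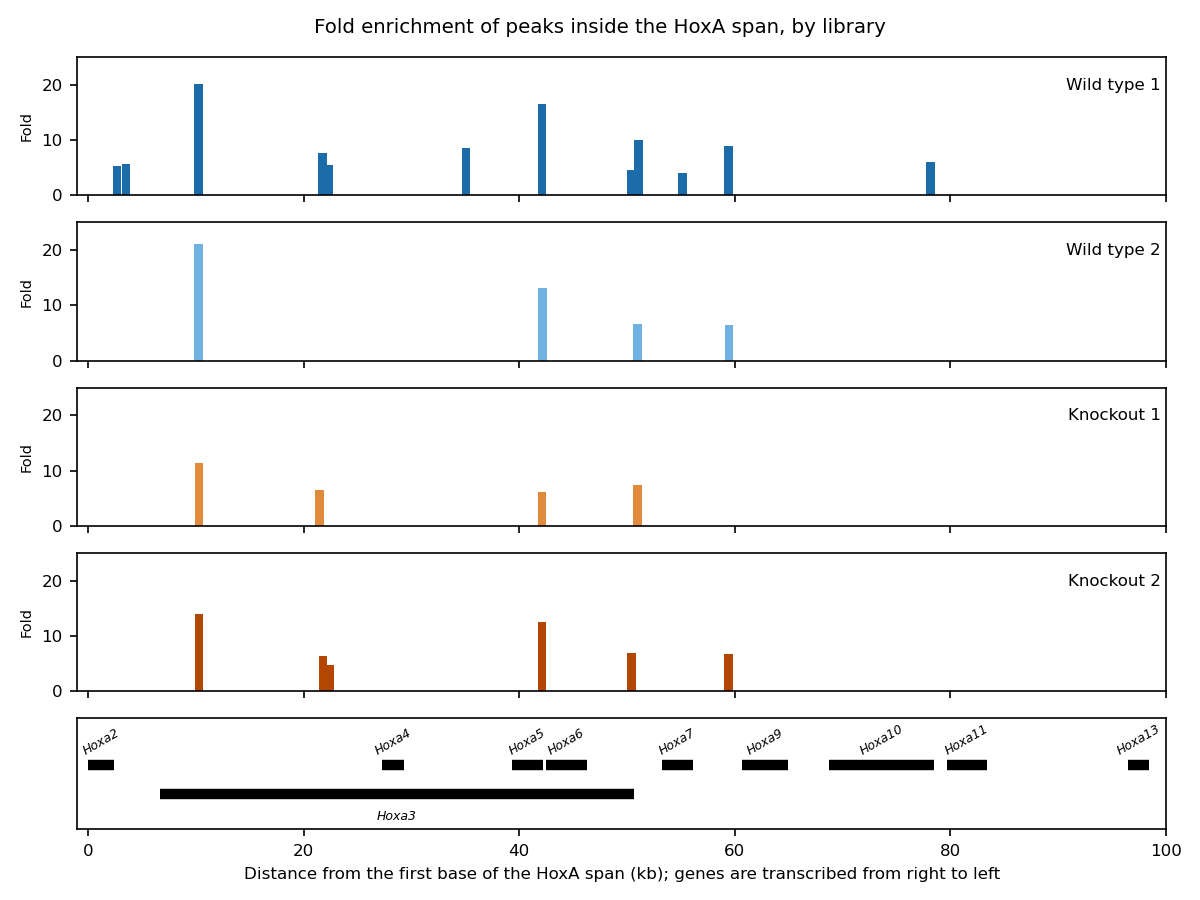
Fold enrichment of each peak inside the HoxA span in the 4 libraries, plotted at its summit by distance in kb from the first base of the HoxA span; bars are drawn wider than the peaks, and the bottom panel shows the member genes. The tallest bar in each library is the Gm15050 site, at 20.1, 21.2, 11.4 and 13.9, and the stretch from Hoxa9 to Hoxa13 holds 1 bar, in wild-type replicate 1.

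The Gm15050 site (chr6:52172515-52172917, mm10) lay inside Hoxa3, 7.84 kb upstream of the start of Hoxa2, a gene of hindbrain and branchial arch patterning. Its fold enrichment was 20.1 and 21.2 in wild-type and 11.4 and 13.9 in knockout libraries, and its percentile 94.9, 94.5, 86.7 and 92.1. It ranked first among the sites of the windows, with a mean percentile of 92.1. Both wild-type folds were above both knockout folds, but folds of separately called lists are not on a shared scale. At equal length its percentiles were 87.7 and 92.7 in wild-type against 86.7 and 86.2 in knockout libraries, so the order of the genotypes held while the means differed by -3.75 percentile points (90.2 ± 3.51 and 86.4 ± 0.339; SD, n = 2 each; exact permutation p = 0.333, the smallest possible). Of the regions of chromosome 6 in all 4 lists, 17.4% had both wild-type ranks above both knockout ranks and 27.3% the reverse, and of those of the genome 25.0% had the first order.

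Hoxa5, needed for the lung and the axial skeleton, was the member with the most constant open promoter. Its site (chr6:52204419-52204699) had its strongest summit 56 bp inside the gene's start. The fold enrichment was 16.5 and 13.1 in wild-type and 6.14 and 12.6 in knockout libraries, and the percentile 83.7, 71.9, 23.3 and 82.9. Knockout replicate 1 was low and the other 3 libraries lay close together. At equal length the percentiles were 60.4 and 62.5 against 23.3 and 70.0, so the genotypes overlapped and the spread between the knockout libraries exceeded the difference of -14.8 between the means (61.4 ± 1.46 and 46.7 ± 33.0; SD, n = 2 each).

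Hoxa3, which acts in the forming thymus and parathyroid, has a span of its own that contains Hoxa4, Hoxa5 and Hoxa6, so the Hoxa5 peak counts for both genes. Its span held 6 and 2 wild-type and 3 and 5 knockout summits. A site 416 bp upstream of its start (chr6:52213313-52213522) was present in both wild-type libraries and knockout replicate 1, with fold enrichments of 10.1, 6.64 and 7.36. A second site, 217 bp inside the start (chr6:52212774-52212905), was present in wild-type replicate 1 and knockout replicate 2, with 4.62 and 7.02. Each library thus had a peak at the Hoxa3 start, but knockout replicates 1 and 2 had it at different sites. Only 5 bases of the 300-base promoter lay under the upstream peaks.

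Further HoxA sites were seen in some of the lists. One inside Hoxa3, 7.56 kb from the start of Hoxa4 (chr6:52183846-52184280), was present in wild-type replicate 1 and both knockout libraries, with fold enrichments of 7.60, 6.59 and 6.40. The peaks of the knockout libraries did not overlap each other there and were joined by the wider wild-type peak. Another, between Hoxa7 and Hoxa9 and 3.28 kb upstream of the start of Hoxa7 (chr6:52221749-52221909), was present in both wild-type libraries and knockout replicate 2, with 8.96, 6.45 and 6.76. Wild-type replicate 1 and knockout replicate 2 shared 2 further sites, 6.93 kb from the Hoxa4 start and 97.4 kb beyond the Hoxa2 start. Wild-type replicate 1 alone had 5 more, 266 and 1111 bp upstream of Hoxa2, 5.78 kb upstream of Hoxa4, 1.02 kb inside Hoxa7 and 271 bp inside Hoxa10. Their fold enrichments lay between 4.02 and 8.49, and the percentile of the Hoxa7 site was 3.73.

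HoxB had 1 site in all 4 lists and it lay in the flank. This site (chr11:96413581-96413915) was 48.0 kb from the start of Hoxb1, a gene of the developing hindbrain, in no gene span of the RefSeq table. Its fold enrichment was 13.4, 12.4, 7.16 and 11.3, and its percentiles at equal length of 53.1 and 61.4 in wild-type overlapped those of 47.3 and 65.8 in knockout libraries. Of the chromosome 11 regions in all 4 lists, 24.0% had both wild-type ranks higher and 15.9% both knockout ranks higher. A site 48.4 kb from the same start was seen in knockout replicate 2 only, with a fold enrichment of 5.42. Inside the span, a site in the long non-coding RNA gene Gm53, 10.9 kb upstream of Hoxb9 (chr11:96260425-96260570), was present in wild-type replicate 1 and both knockout libraries, with 8.53, 6.33 and 5.18. The start of Hoxb8, a gene of the trunk, had a peak 434 bp upstream in wild-type replicate 1 only, with 5.68. The same library alone had 2 sites in Ttll6, 53.2 and 48.5 kb upstream of Hoxb13. None of the other 9 HoxB members had a start peak in any list.

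HoxC held 2 sites, both on the 5′ side of Hoxc13, a gene of hair follicles and nails. The first, 81.2 kb upstream (chr15:102839789-102839995), was in all 4 lists, with fold enrichments of 11.3, 10.0, 5.54 and 9.77 and knockout replicate 1 the lowest. At equal length its percentiles were 39.4, 46.7, 23.6 and 56.2, with the genotypes overlapping, on a chromosome where 40.3% of such regions had both wild-type ranks higher and 15.4% both knockout ranks higher. The second (chr15:102920741-102920970), 223 bp upstream of the Hoxc13 start, had a peak in the wild-type lists alone, both of them, with fold enrichments of 9.76 and 8.17, −log10 q of 27.5 and 12.5 and percentiles of 63.6 and 38.3. It was the only site of the windows with this pattern at equal length, where its percentiles were 11.5 and 17.7. Hoxc13 was the single member (1 of 38) with a start peak in both wild-type and neither knockout list, beside 1.84% of protein-coding genes as deposited and 1.45% at equal length. Those shares cover genes with an entry in the promoter table, which Hoxc13 lacks, and its start was taken from the gene span. The knockout lists end at a −log10 q of 3.01 and 3, so a weaker knockout signal at this start may lie below them. The authors' deposited lists of differential regions do not hold this site.

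HoxD had its 1 constant site at the far end of the 5′ flank, 89.2 kb upstream of Hoxd13 (chr2:74578885-74579181). It covered the promoters of Lnpk, a protein of endoplasmic reticulum junctions, and of the long non-coding RNA gene 4930445N08Rik. Its fold enrichment was 17.0 and 10.9 in wild-type and 13.1 and 14.3 in knockout libraries. At equal length its percentiles were 60.6 and 41.0 against 81.3 and 66.8, both knockout libraries above both wild-type libraries, by 23.3 points on average (50.8 ± 13.8 and 74.1 ± 10.2; SD, n = 2 each; exact permutation p = 0.333, the smallest possible). Both knockout ranks were above both wild-type ranks at 20.5% of such regions of chromosome 2 and 21.1% of those of the genome, and both wild-type ranks were the higher at 22.3% on chromosome 2. The other flank held a site at the promoter of Mtx2, a mitochondrial outer membrane protein, 62.9 kb beyond the Hoxd1 start (chr2:74825761-74825897). It too had a peak in both wild-type lists and in no knockout list, with fold enrichments of 6.05 and 4.64 and percentiles of 17.9 and 0.167, and was absent from the equal-length lists. Inside the span, Hoxd3 held a peak in wild-type replicate 1, with a fold enrichment of 4.71 and a percentile of 3.13.

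**Figure D4:**
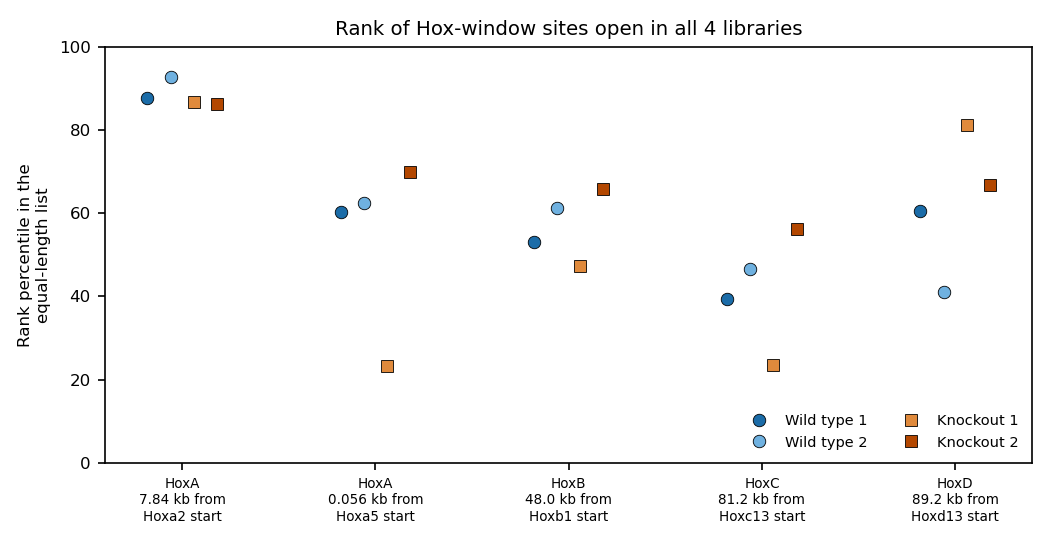
Percentile of 5 of the 7 sites in all 4 lists, each list reduced to its 13877 best-ranked peaks, for wild-type (circles) and knockout (squares) libraries. Wild-type libraries are both higher at the HoxA site 7.84 kb from the Hoxa2 start, knockout libraries are both higher at the HoxD site, and the genotypes overlap at the other 3 drawn.

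Over the 7 sites, both wild-type libraries ranked above both knockout libraries at 1, the reverse held at 1, and the genotypes overlapped at 5. The genome-wide shares of these orders were 25.0% and 21.1%. At 5 of the 7 the lowest percentile belonged to knockout replicate 1, the shortest list, and at 5 of the 7 the highest belonged to knockout replicate 2. The knockout libraries thus lay at opposite ends of the order at most of these sites. No genome-wide share is given for this order of libraries, and whether it is particular to the Hox windows was not tested.

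Most Hox genes had no peak at all. A summit lay in the span of 5 and 2 members in wild-type and 2 and 2 in knockout libraries (3.5 ± 2.12 and 2.0 ± 0; SD, n = 2 each; exact permutation p = 1), and the difference of -1.5 was 0 without wild-type replicate 1 and -3 without wild-type replicate 2. Hoxa3 and Hoxa5 had one in all 4 lists (5.26% of members, beside 17.8% of all protein-coding genes) and 33 members had none in any (86.8%, beside 56.7%). The members with one in wild-type replicate 1 only were Hoxa7, Hoxa10 and Hoxd3. Gene spans differ in length, so the shares of genes with a peak near the start are given as well. The shares over protein-coding genes cover only those with an entry in the promoter table. Of the members, 22 have such an entry, Hoxa3 and Hoxa5 among them, and the other 16 took their start from the gene span. The member shares set beside them are therefore not fully like for like. A start peak, within 1 kb, was present at 6 and 3 members in wild-type and 2 and 2 in knockout libraries. Hoxa3 and Hoxa5 again had it in all 4 lists (5.26%, beside 29.4% of protein-coding genes), Hoxc13 in both wild-type lists, and Hoxa2, Hoxa10 and Hoxb8 in wild-type replicate 1 alone. The other 32 (84.2%, beside 53.1%) had none. No member had a start peak in both knockout lists and neither wild-type list, beside 0.0400% of genes as deposited and 0.423% at equal length. At equal length 1 member, Hoxa5, had it in all 4 lists (2.63%, beside 27.1%) and 35 had none (92.1%, beside 61.6%).

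CpG-rich promoters are open in most cell types, and the Hox promoters were compared with others of like CpG content. The RefSeq table had 24 promoters for 22 of the 38 members. Their median CpG count in 300 bases was 14.5 (range 4 to 45), against 13 for the 21263 promoters of all protein-coding genes. A peak in all 4 lists overlapped 1 Hox promoter (4.17%), beside 23.5% of all promoters, and a peak in any list overlapped 3 (12.5%), beside 38.9%. With at least 9 CpG, a minimum chosen after the data were seen, the values were 1 of 20 Hox promoters (5%) and 38.5% of all. Among promoters with 20 to 29 CpG, 1 of 9 Hox promoters and 48.6% of all were open in the 4 lists, and among those with 10 to 19 CpG 0 of 6 and 32.1%. The promoter of Hoxa13, a gene of the distal limb and genital tubercle, had the most CpG of the Hox set, 45, and no peak. Hox promoters of a cluster are neighbours and not independent of each other, and no test was made of these shares.

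**Figure D5:**
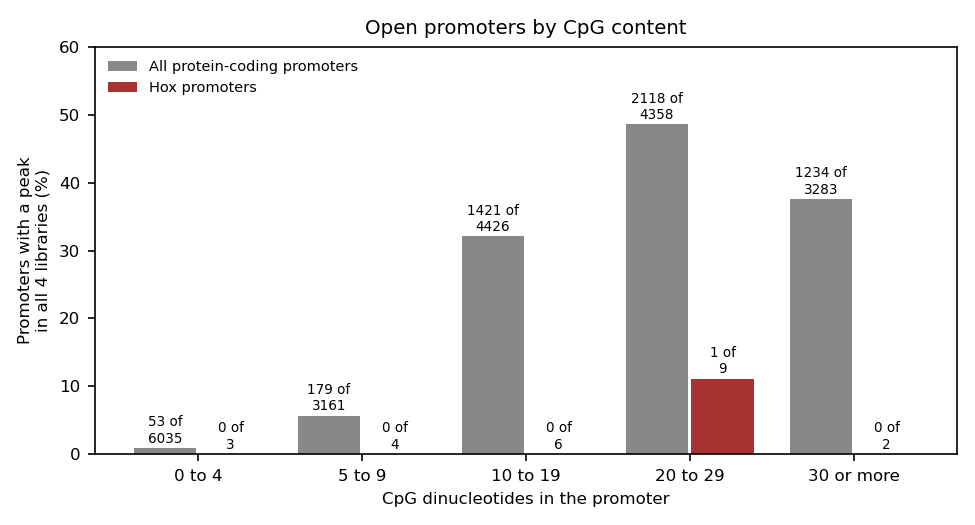
Percent of promoters with a peak in all 4 libraries, by the number of CpG dinucleotides in the 300-base promoter, for all protein-coding promoters (grey) and Hox promoters (red), with the counts above each bar. Of the Hox classes only that of 20 to 29 CpG has an open promoter, 1 of 9, where the share of all promoters is 48.6%.

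Short motifs were counted in the promoters on both strands, and none of those searched contains another. The GC box GGGCGG was present in 41.7% of Hox and 46.2% of all promoters, the AP-1 motif TGANTCA in 4.17% and 6.99%, and TGATTNAT, a form bound by Hox proteins with their Pbx partners, in 8.33% and 2.75%, which for the Hox set is 2 promoters. The Hoxa2 promoter printed above held 1 TGATTNAT match, outside the bases in capitals, and those of Gm15050 and Hoxa5 none. A match is a description of these letters and not a bound site.

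The microRNA genes of the clusters, which target Hox and other transcripts, were without a peak of their own. The nearest summit of any list lay 4.67 kb from Mir196a-1, in the Gm53 site, 8.2 kb from Mir196b, 10.1 kb from Mir10b, 38.2 kb from Mir10a, 52.4 kb from Mir196a-2 and 94 kb from Mir615.

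Genes whose products act with or on Hox genes were listed for comparison, and those with a start in the promoter table were counted. Of the protein-coding genes with such a start, 29.4% had a start peak in all 4 lists and 53.1% in none. Of the TALE homeodomain partners of Hox proteins, 3 of 5 (Pbx4, Meis1 and Meis2) had a start peak in all 4 lists. Of the Polycomb genes, which silence Hox clusters, 9 of 19 had one, among them Ezh2, Eed and Suz12 of the core methyltransferase complex, and 4 had none. Of the Trithorax genes and H3K27 demethylases, 3 of 6 (Kmt2a, Men1 and Kdm6a) had one in all 4 lists and each of the 6 in at least 1. Of the retinoic acid genes, which act upstream of 3′ Hox genes, Rara, Rarg and Rxrb had one in all 4 lists and the other 5 of 8 in none. Of the related homeobox genes, 0 of 7 had a start peak in any list (Cdx2, Cdx4, Evx1, Evx2, Gsx1, Gsx2 and Pdx1). At equal length a start peak in all 4 lists was left at 1 TALE gene and 8 Polycomb genes. It was left at 3 Trithorax and demethylase genes and 3 retinoic acid genes. The share of protein-coding genes was then 27.1%. As deposited, no gene of these lists had a start peak in both libraries of 1 genotype and neither of the other. At equal length Wdr5, a subunit of the Trithorax methyltransferases, had it in both wild-type libraries only. That pattern was found at 1.45% of protein-coding genes at equal length. With the lists as deposited, all 6 Trithorax and demethylase genes counted, Wdr5 among them, had a start peak in knockout replicate 2.

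The authors' deposited table of differential regions lists 189 as enriched in knockout and 190 as enriched in wild-type cells. None of either list lay in a Hox window. The nearest, in the authors' deposited table, was a wild-type-enriched region 102 kb from the edge of the HoxC window. The nearest knockout-enriched region of that table lay 907 kb from the HoxB window.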

How the data were processed

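ATAC-seq was run on 10T1/2 cells, 2 wild-type and 2 Ranbp2 knockout libraries, with 50000 cells each and 75 bp paired reads per the labels. The submitters' processing notes name build mm10 and the tools MACS2, Bowtie2, cutadapt, DESeq2, DiffBind 2.2.12 and deepTools, without saying what each did. For read filters and settings, nothing is given in the sources used here. The authors deposited 1 peak list per library with a fold enrichment (a ratio over local background), −log10 p and −log10 q, a score made from the q-value, and each summit's position. Differential regions were deposited by the authors as 2 lists of positions. The deposited lists hold no read counts, so depth is unknown, and a site missing from a list may be below its threshold.

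Peaks were joined into sites where they overlapped by at least 1 bp (Python 3.11.15, pandas 2.3.3, numpy 2.4.6), and the joining was tested on simulated peaks. Gene spans, starts and promoters came from RefSeq tables of GRCm38.p6. Members without an entry in the promoter table (16) took their start from the gene span and the strand of their cluster, which all listed members of a cluster share. Exons, introns and a genome sequence were not used here. Lists of equal length kept the 13877 peaks with the highest −log10 q. Tests were two-sided exact permutation tests over the 4 libraries. Wilson 95% intervals cover counting error only. Alternatives were a −log10 q of at least 5, flanks of 50 kb or none, gene spans with 1 kb added, equal length or lists as deposited, joining only at an overlap of at least 50 bp, each library left out, and a replicate block.

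Values are given for members with a summit in the span or within 1 kb of the start in at least 2 libraries, for the 12 best-ranked sites, of which 2 are not reported here, with missing libraries counted as percentile 0, and for all sites in both libraries of 1 genotype only. Members and lists were chosen with earlier results of these data known, and the CpG minimum (9, the lower quartile of the Hox promoters) and CpG classes after the data were seen. Other sites were added after their values were seen.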

Additional observations from a re-analysis of the deposited data

How the results depend on the processing

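Of 90 alternative values, 8 changed sign, 13 moved (a difference became 0 or left 0, or a count of sites changed by over 1.5 times) and 69 kept the sign of a difference, whatever its size, or a count within 1.5 times, and p ran from 0.333 to 1 in those with a test. The 69 include the alternatives with a replicate block, which cannot change a difference and alter only its p-value. With the lists as deposited, the difference in peaks (knockout minus wild type) became -6 for all windows, -3 for HoxA, -0.5 for HoxB and -1.5 for HoxD, against 1.5, 2, 0.5 and 0 at equal length. The share of peaks in the windows (-0.00193 percentage points) changed sign with a −log10 q of at least 5 (0.00365), a 50 kb flank (0.000202) and equal length (0.0108), and ran from -0.00929 to 0.00542 when 1 library was left out. Without flanks that share differed by -0.000622 and the HoxC peaks by 0, sites in all 4 lists fell to 2 and wild-type-only sites to 0. Wild-type-only sites (2) numbered 1 with a −log10 q of at least 5, with a 50 kb flank and at equal length, and from 2 to 11 with 1 library left out, the highest without wild-type replicate 2. Knockout-only sites ran from 0 to 1, which was reached without wild-type replicate 1 or knockout replicate 1. Genes with a peak in the span differed by 0 at equal length, by -3.5 with 1 kb added to each side of the span and by -3 to 0 with 1 library left out, and the HoxD difference ran from -0.5 to 0. The cause of these changes was not tested. With the replicate number as a block, the difference for all windows was 1.5 (p = 0.5, the smallest possible for an exact permutation within pairs). Deviations of same-numbered libraries were nearly unrelated (r = 0.0326 over 8935 regions). This correlation cannot decide whether same-numbered libraries were prepared together. Depth is unknown and the exact permutation test used cannot pass a threshold of 0.05 with 2 libraries a genotype, so no difference was called.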
